A study of Mus musculus with 4 samples.

Results

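Activins are dimers of beta subunits of the TGF-beta superfamily, and 7 genes of this system were followed across the stromal vascular cells of aged gonadal fat. They were the subunit genes Inhba and Inhbb, the genes of the activin-binding proteins follistatin (Fst) and follistatin-like 3 (Fstl3), and the genes of the type I receptor Acvr1b and the type II receptors Acvr2a and Acvr2b. The genes were found by symbol among the 31054 features of the count tables, and each of the 7 had 1 row. They were selected on earlier results of these data, namely the opposite differences of Inhba between Tom+ and Tom- adipose progenitor cells (APCs) of the libraries labelled CD45- and CD45+ and the concentration of its molecules in few cells, so those values are given as a description. Levels in other cells, the other genes of the cells rich in Inhba and the remaining 6 genes were looked at beyond that choice.

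All cells came from gonadal adipose tissue of male p16-CreERT2/R26-LSL-tdTomato mice of 18 months. In these mice tamoxifen, given to all of them, lets a Cre expressed from the p16 gene switch on a lasting tdTomato (Tom) reporter, so that Tom marks cells in which p16 was active around the treatment and their descendants, not the level of p16 at collection. The groups were sorted on CD45, the pan-leukocyte surface protein, and on Tom, which gave CD45- Tom+ and CD45- Tom- cells on one side and CD45+ Tom+ and CD45+ Tom- cells on the other, with 1 library of 10x 3' single-cell RNA-seq each. Values of the 4 libraries are given in that order where no names stand beside them. How many mice went into a library is not given in the sources used here. As each group was a single library, differences between groups have no replicate check and no p-values are given.

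Activin A, a dimer of the Inhba product, and activin B, of the Inhbb product, are secreted after cleavage of a larger precursor. They bind ACVR2A or ACVR2B, which then recruit ACVR1B, and the signal passes to SMAD2 and SMAD3. Follistatin and follistatin-like 3 wrap around activin and keep it from its receptors. Activin A is made by adipose progenitors, where it is known to favour proliferation over fat cell differentiation, and in fibroblasts it takes part in wound healing and fibrosis.

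After filtering, 3886, 3674, 1927 and 4391 cells were kept in that order, 13878 in all, with a median of 18331 to 19516 unique molecular identifiers (UMIs, counted mRNA molecules) per cell. The CD45 labels were not borne out by Ptprc, the CD45 gene, which had 157 to 223 counts per 1000000 UMIs (CPM) over the kept cells of all 4 libraries, among them 217 CPM in CD45- Tom+. The sorting protocol in the labels also lists CD45- Tom- again where CD45+ Tom- would stand. Groups follow the sample titles, and the values of CD45+ Tom- and of the CD45+ pair hold only as far as those titles do. The Tom labels were, with 713 and 714 CPM of tdTomato in the Tom+ libraries against 15.8 and 18.7 CPM, while Cdkn2a, the p16 gene itself, had 6.78 to 7.57 CPM in the 4 libraries. The libraries share cell barcodes, and 4394 of them were in both Tom- libraries, 39.0% and 39.7% of their barcodes, where the larger of the 2 entries had a median of 46.8 times the UMIs of the smaller. Of the kept cells, 3555 had a barcode that also occurs in another library, but only 97 had more UMIs there.

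Inhba (ENSMUSG00000041324) lies on chromosome 13 of GRCm38, from 16011851 to 16031621 on the plus strand, and Inhbb (ENSMUSG00000037035) on chromosome 1, from 119415465 to 119422248 on the minus strand. Their upstream sequences are shown because these are the genes of the activin subunits, and the windows differ in composition. The 250 bases before each start are from RefSeq's GRCm38.p6 table, chr13:16011601-16011850 for Inhba and chr1:119422249-119422498 for Inhbb, 5' to 3' on the strand of the gene, and capitals mark the motif matches.
Inhba: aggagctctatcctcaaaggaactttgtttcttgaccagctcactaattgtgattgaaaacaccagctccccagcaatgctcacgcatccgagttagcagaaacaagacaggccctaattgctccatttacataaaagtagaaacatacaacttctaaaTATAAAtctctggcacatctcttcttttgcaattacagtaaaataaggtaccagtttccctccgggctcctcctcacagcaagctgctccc
Inhbb: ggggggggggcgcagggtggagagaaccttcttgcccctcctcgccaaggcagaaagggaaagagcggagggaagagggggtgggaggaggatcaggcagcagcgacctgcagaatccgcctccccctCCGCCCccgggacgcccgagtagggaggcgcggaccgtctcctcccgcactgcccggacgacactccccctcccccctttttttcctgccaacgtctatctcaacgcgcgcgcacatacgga

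Of the letters searched on both strands, the Inhba window held the TATA box TATAAA, beginning at base -91 from the start, and no GC box GGGCGG, while the Inhbb window held 1 GC box, as CCGCCC at -122, and no TATA box. G and C made up 43.2% of the Inhba window and 68.0% of the Inhbb window. Of 32851 promoter windows of the same length, 12.4% held TATAAA and 32.7% held GGGCGG. The letters TGANTCA (AP-1), TGACGTCA (CRE) and GTCTAGAC (a SMAD palindrome), present in 6.75%, 1.55% and 0.167% of all windows, were in neither. Windows were found for 6 of the 7 genes. The other 4 were rich in G and C (71.2% to 82.0%) and held 2 to 4 GC boxes each, and that of Fstl3 also held the TATA letters. A match describes the letters and is not shown to be a bound site.

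Both ligand genes were read mainly from adipose progenitors, while their levels in the other cells differed. Cells were grouped by marker genes into APC-like cells (adipose progenitors, marked by Pdgfra, Dpt, Pi16, collagens and others, with all 9 markers raised in each of their clusters), leukocyte, endothelial and mesothelial classes, and clusters that stayed numbered because markers of several classes were raised in them. The level of Inhba was highest in 4 kinds of cells. Summed over the 4 libraries it was 18.2 CPM (95% Poisson interval 11.4 to 27.5) in 253 neutrophil-like cells, 17.9 CPM (17.1 to 18.9) in 3641 APC-like cells, 10.8 CPM (9.61 to 12.2) in 869 mesothelial-like cells and 7.56 CPM (6.501 to 8.75) in 760 cells of cluster 7. Cluster 7 was led by Cxcl13 and Cxcl5 and had mesothelial and progenitor markers side by side. The first 2 levels do not differ beyond counting error, and the neutrophil-like value rests on only 22 UMIs in 14 cells. Intervals here and below cover counting error only, not the spread between mice.

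Elsewhere Inhba was scarce. Macrophage-like cells had 1.12 CPM (0.849 to 1.44), plasma cell-like cells 1 UMI in 1343 cells, and none was seen in B cell-like, T cell-like and lymphatic endothelial-like cells, where the limit set by 3 UMIs was 0.521, 0.695 and 0.593 CPM. The lymphocytes serve as the background that free RNA in the droplets could give. A UMI was present in 11.8% of APC-like cells (exact binomial interval 10.8 to 12.9%) at a median of 22411 UMIs per cell. It was present in 0 of 632 T cell-like cells at 6120 UMIs per cell, with an exact upper bound of 0.582%. After thinning every cell to 2000 UMIs the shares were 1.90% (1.48 to 2.40%) and 0%, with an upper bound of 0.590% for the T cell-like cells. Mesothelial-like cells had a UMI in 16.7% of cells (14.3 to 19.3%) at 30534 UMIs per cell, and cluster 7 in 12.5% (10.2 to 15.1%) at 31529.5. Their thinned shares were 2.34% (1.435 to 3.59%) and 1.62% (0.841 to 2.815%), overlapping that of APC-like cells. APC-like cells made up 26.2% of all cells and held 72.6% of the 2138 Inhba UMIs and 78.8% of the 4957 Inhbb UMIs.

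Inhbb had its highest level in cluster 13, at 112 CPM (102 to 123) in 372 cells, in 50.3% of them, and these cells held 9.44% of its UMIs. This cluster was led by Rbp7, Aqp7 and Gpihbp1, genes of capillary endothelium in fat, and kept its number because markers of another class were raised in it too. APC-like cells followed at 45.1 CPM (43.7 to 46.5), blood endothelial-like cells at 25.8 CPM (16.5 to 38.4), and mesothelial-like cells at 10.4 CPM (9.22 to 11.7). The steps from cluster 13 to APC-like and on to blood endothelial-like cells exceed counting error. In cluster 13 the level was 96.3 CPM in CD45- Tom+ and 95.5 CPM in CD45- Tom-, against 123 CPM in CD45+ Tom-, with overlapping intervals. Inhba had 1 UMI in all 372 cells of that cluster. In neutrophil-like cells the order was the other way, with 22 UMIs of Inhba and 2 of Inhbb.

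The activin-binding proteins were largely progenitor genes. Fst (ENSMUSG00000021765, chromosome 13, 114452290 to 114458951, minus strand) had 243 CPM (240 to 247) in APC-like cells, where 72.8% of cells had a UMI and which held 88.9% of all Fst UMIs. Cluster 24, 96 cells with progenitor markers and immunoglobulin transcripts, had 95.4 CPM (87.0 to 104). Mesothelial-like cells had 56.7 CPM (53.9 to 59.7) and cluster 7 had 20.8 CPM (19.0 to 22.7), and no leukocyte class had more than the 6.60 CPM (8 UMIs) of the neutrophil-like cells. Fstl3 (ENSMUSG00000020325, chromosome 10, 79777272 to 79782630, plus strand) was read in the same stromal cells, with 14.99 CPM (14.2 to 15.8) in APC-like cells, 12.9 CPM (11.6 to 14.4) in mesothelial-like cells and 7.19 CPM (6.15 to 8.35) in cluster 7. Plasma cell-like cells had 1.08 CPM (0.810 to 1.41) of it.

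Receptor genes were read from more kinds of cells than the ligands. Acvr1b (ENSMUSG00000000532, chromosome 15, 101174067 to 101213684, plus strand) had UMIs in all 21 classes and clusters of at least 50 cells, from 33.7 CPM (31.4 to 36.1) in cluster 7 through 25.6 CPM (23.7 to 27.6) in mesothelial-like, 20.4 CPM (19.4 to 21.3) in APC-like and 12.1 CPM (11.1 to 13.03) in macrophage-like cells down to 1.82 CPM (1.46 to 2.23) in plasma cell-like cells. Only 39.2% of its UMIs were in APC-like cells. Acvr2a (ENSMUSG00000052155, chromosome 2, 48814109 to 48903269, plus strand) had 74.0 CPM (72.2 to 75.8) in APC-like cells, more than in any other class. Next stood lymphatic endothelial-like cells at 39.1 CPM (33.9 to 45.0), cluster 13 at 38.8 CPM (33.0 to 45.2) and cluster 11, led by gamma-delta T cell receptor genes, at 30.6 CPM (25.2 to 36.8), and these levels each overlap the next within counting error.

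Acvr2b (ENSMUSG00000061393, chromosome 9, 119402118 to 119434995, plus strand) was low throughout, and unlike Acvr2a it was not highest in progenitors. Cluster 13 had 10.5 CPM (7.65 to 14.1), mesothelial-like cells 4.25 CPM (3.50 to 5.12) and APC-like cells 2.79 CPM (2.45 to 3.17). The 5 genes Inhba, Fst, Fstl3, Acvr2a and Acvr2b overlap another feature on the opposite strand (Gm48444, Gm47040, Prss57, Orc4 and Gm47320), and all 7 are protein coding. Because the reads are tags from the 3' end, a CPM here is not scaled by gene length, and levels are compared within a gene and not between genes.

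**Figure D1:**
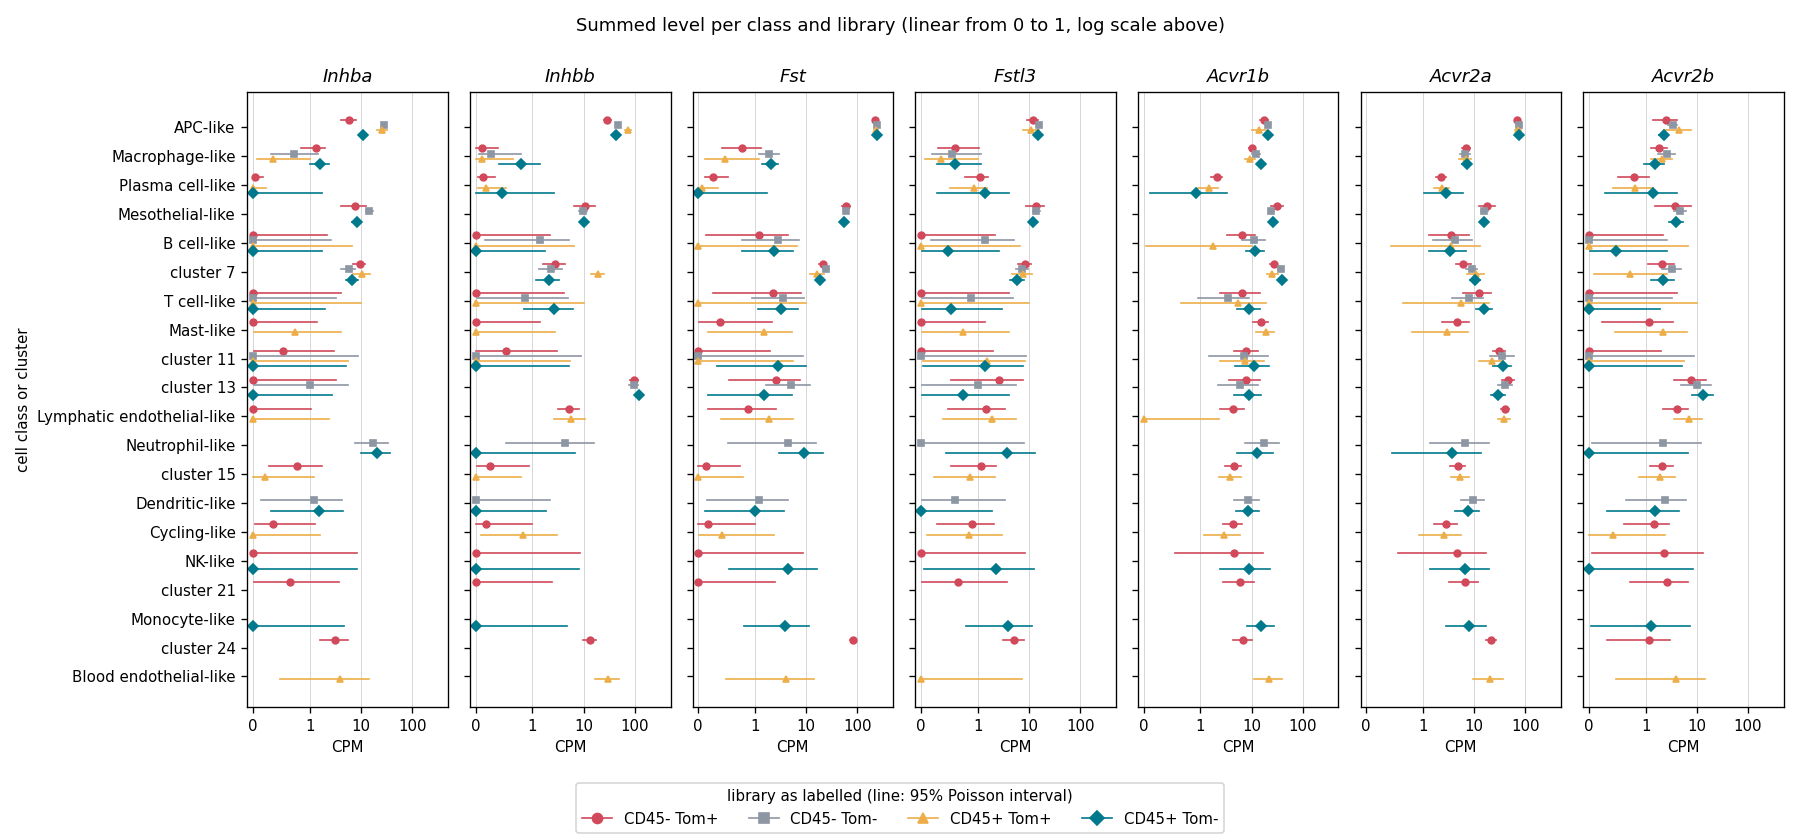
CPM of each gene (horizontal, linear from 0 to 1 and logarithmic above) in each cell class or cluster (vertical), by library, with 95% Poisson intervals, for classes with at least 50 cells in the library. Fst and Acvr2a of the 4 libraries lie on top of each other in APC-like cells, Inhba spans 5.88 to 27.7 CPM there, and Inhbb is highest in cluster 13.

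Other genes of the pathway set the scene. Of 7 other ligands that use these receptors, Inhbc and Mstn, the myostatin gene, had no UMI, Inha, which encodes the inhibin alpha subunit that turns activin into its antagonist inhibin, had 2.69 CPM in APC-like cells, and Gdf11 had 7.36 CPM there. Gdf3 was the ligand of macrophage-like cells, with 25.1 CPM against 0.219 CPM in APC-like cells. The other activin type I receptor Acvr1c, known from mature fat cells, had 0.0346 CPM in APC-like cells and 3.83 CPM in cluster 13. Tgfbr3, which presents inhibin and TGF-beta, had 328 CPM in APC-like and 8.60 CPM in macrophage-like cells. Of the proprotein convertases that cut such precursors, Furin had 46.7 CPM, Pcsk5 69.0 CPM and Pcsk6 60.3 CPM in APC-like cells, and Pcsk6 reached 323 CPM in lymphatic endothelial-like cells.

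Within the progenitors the members did not share a pattern. The APC-like class consisted of 6 clusters, and the 7 genes had been kept out of the genes used for clustering. Fst was highest in cluster 0 (led by Inmt, Mmp11 and Hmcn2), at 379 CPM (372 to 386). Next stood cluster 27 (Ifit3b, Ifit3 and Ifit1), at 305 CPM (275 to 338) in only 54 cells, where the libraries parted, with 511 CPM (456 to 572) in CD45- Tom-, above cluster 0 there, and 107 CPM (82.1 to 136) in CD45+ Tom-. Fst was 263 CPM (257 to 269) in cluster 3 (Fgf10, Enpp6 and Gsc), 101 CPM (95.97 to 106) in cluster 9 (Cpxm2 and Sfrp1) and 55.7 CPM (50.6 to 61.1) in cluster 18 (Thbs4, Cthrc1 and Fbn2). Acvr2a was 104, 86.9, 66.9, 30.9 and 32.5 CPM in clusters 0, 3, 27, 9 and 18. In each library with at least 20 cells in both clusters, Fst was higher in cluster 0 than in cluster 18 with intervals apart: 323 against 63.8 CPM in CD45- Tom+, 393 against 52.6 CPM in CD45- Tom- and 374 against 51.9 CPM in CD45+ Tom-. The same held for Acvr2a, with 99.6 against 15.6, 100 against 34.8 and 108 against 32.7 CPM.

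Fstl3, the other trap, had the reverse order, at 10.4 CPM (9.22 to 11.6) in cluster 0 and 26.5 CPM (23.1 to 30.3) in cluster 18, and this too was seen in the 3 libraries, at 7.81 against 29.6, 10.0 against 30.1 and 11.0 against 24.8 CPM. Cluster 9 was the one richest in Inhbb, with 108 CPM (103 to 113) and a UMI in 54.1% of its cells, against 16.9 CPM (15.5 to 18.5) in cluster 3. Acvr1b was between 10.0 and 24.2 CPM over the 6 clusters.

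Inhba pooled over the libraries was 6.55 CPM (5.65 to 7.55) in cluster 0, 6.41 CPM (5.51 to 7.42) in cluster 3, 36.5 CPM (33.6 to 39.5) in cluster 9 and 65.4 CPM (59.9 to 71.3) in cluster 18. In cluster 18 it was 125 CPM (113 to 138) in CD45- Tom-, 30.8 CPM (25.5 to 37.0) in CD45+ Tom- and 14.0 CPM (6.40 to 26.6) in CD45- Tom+. A UMI was found in 37.0% of cluster 18 cells and 8.36% of cluster 0 cells, whose median depths were 38747.5 and 17931 UMIs.

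**Figure D2:**
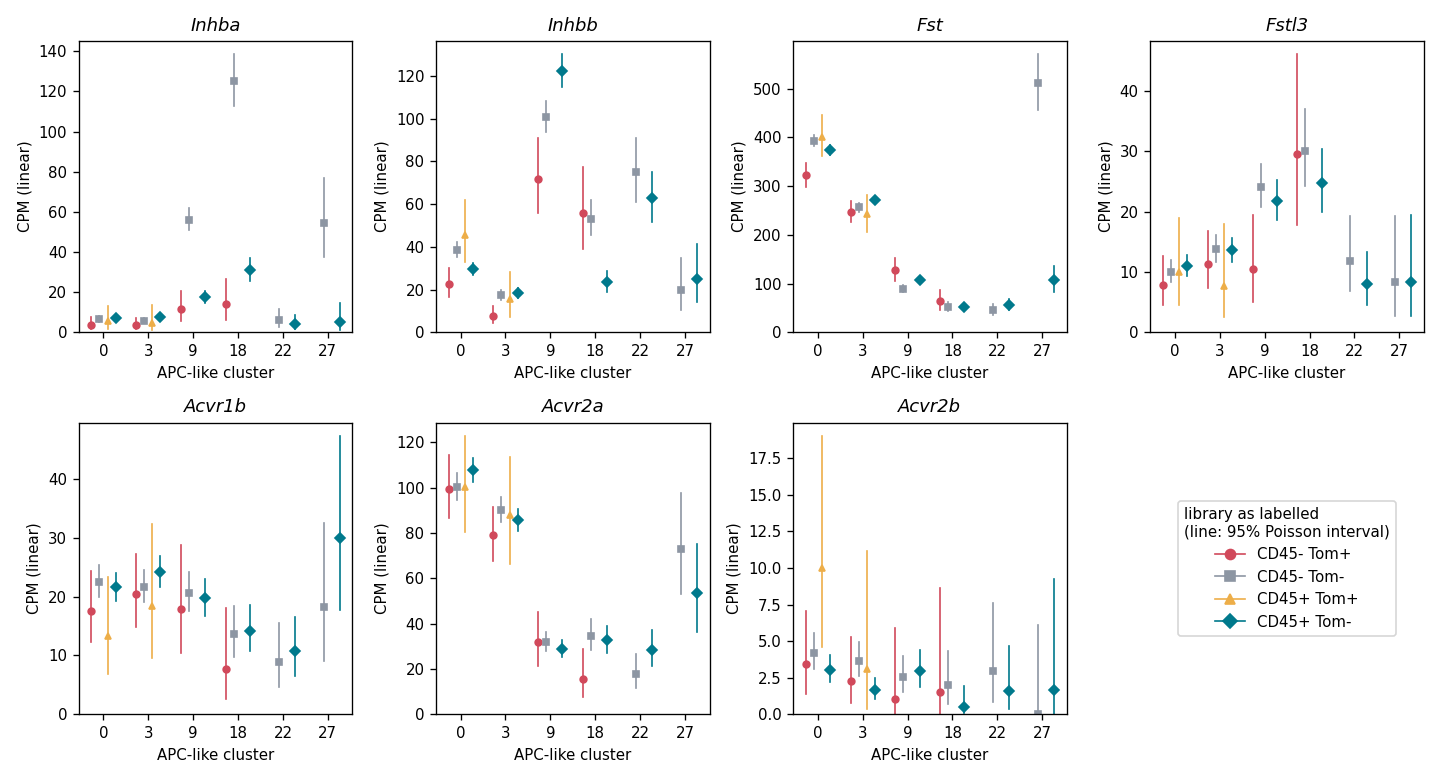
CPM (vertical, linear from 0) of the 7 genes in the 6 APC-like clusters (horizontal) by library, with 95% Poisson intervals, for clusters with at least 20 cells in the library. Fst and Acvr2a are highest in clusters 0 and 3 in CD45- Tom+, CD45- Tom- and CD45+ Tom-, apart from cluster 27 of 54 cells. In CD45+ Tom+ only clusters 0 and 3 had enough cells to be shown. Fstl3 and Inhba are highest in clusters 9 or 18 in the CD45- Tom- and CD45+ Tom- libraries, and the libraries part most for Inhba.

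The Inhba molecules of the progenitors sat in few cells. Of 3641 APC-like cells 430 had a UMI, 270 of them only 1, and 15 cells held 50% of the 1553 UMIs. The 43 cells with at least 5 UMIs, 1.18% of the class and called Inhba-rich because of that count, held 992 UMIs or 63.9%. The single richest cell had 177 Inhba UMIs among 42324, the next had 124, 112 and 72, and these 4 cells, all of the CD45- Tom- library, held 485 UMIs, 49.5% of that library's total in the class.

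Counts of such cells were low in every library. There were 0 among 272 APC-like cells of CD45- Tom+, with an exact upper bound of 1.35%. CD45- Tom- had 25 among 1541 (1.62%, exact interval 1.05 to 2.39%). CD45+ Tom+ had 3 among 108 (2.78%, 0.577 to 7.90%) and CD45+ Tom- 15 among 1720 (0.872%, 0.489 to 1.43%). The upper bound in CD45- Tom+ lies within the interval of CD45- Tom- and above the share in CD45+ Tom-. The richest cells had 2, 177, 40 and 43 UMIs in the same order. The share of APC-like cells with any Inhba UMI was 9.56%, 11.7%, 14.8% and 12.1%, with overlapping intervals.

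**Figure D3:**
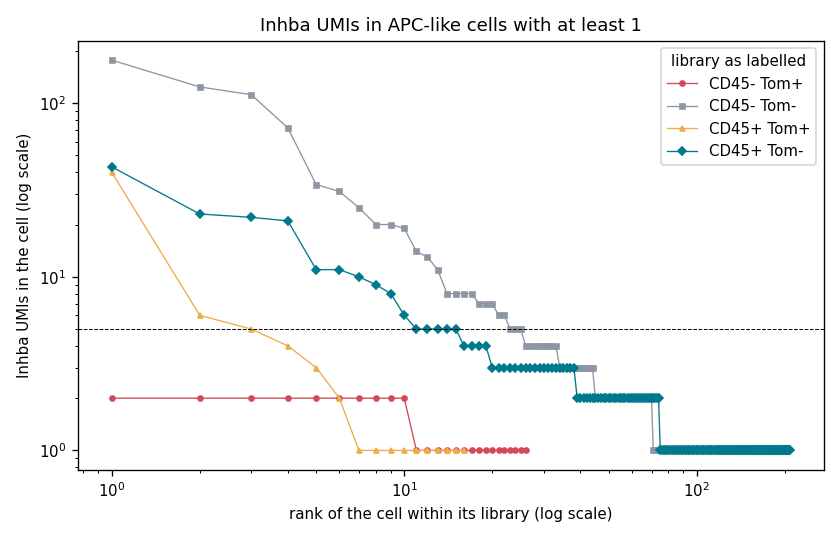
Inhba UMIs per cell (vertical, log scale) of every APC-like cell with at least 1, ranked within its library (horizontal, log scale), with a dashed line at 5 UMIs. The CD45- Tom+ library ends at 2 UMIs per cell, and the CD45- Tom- library has 4 cells from 72 to 177.

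The richest 2% of cells held 33.3%, 79.3%, 72.9% and 54.1% of the Inhba UMIs of the 4 libraries. Among genes within 2-fold of its level, the median share was 29.6%, 13.2%, 16.2% and 18.3%, and as high a share was reached by 1259 of 3288 genes in CD45- Tom+, 2 of 4525 in CD45- Tom-, 16 of 4607 in CD45+ Tom+ and 48 of 4042 in CD45+ Tom-. In the CD45- Tom- library the other members had 33.9% (Inhbb), 16.0% (Fst), 20.2% (Fstl3), 15.2% (Acvr1b), 11.6% (Acvr2a) and 34.5% (Acvr2b, with 119 UMIs in all). Outside the progenitors, 7 mesothelial-like cells, 6 of cluster 7 and 1 macrophage-like cell had at least 5 Inhba UMIs, and the highest neutrophil-like cell had 3.

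Clusters 9 and 18 together were 22.8% of the class and held 35 of the 43 Inhba-rich cells, 4.22% of their cells (2.95 to 5.82%) against 0.285% (0.123 to 0.560%) of the others. The share of these clusters in the class was much alike over the libraries, 22.1%, 23.8%, 27.8% and 21.7%. Inhba-rich cells made up 0 of 60 of their cells in CD45- Tom+, with an exact upper bound of 5.96%. They were 20 of 366 in CD45- Tom- (5.46%, 3.37 to 8.31%), 3 of 30 in CD45+ Tom+ (10.0%, 2.11 to 26.5%) and 12 of 374 in CD45+ Tom- (3.21%, 1.67 to 5.54%). These intervals all overlap. Without the Inhba-rich cells cluster 18 still had 15.9 CPM and cluster 9 had 7.24 CPM, against 5.32 CPM in the other clusters.

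Most of the Tom contrast of Inhba in progenitors lay in those few cells. In APC-like cells Inhba had 36 UMIs or 5.88 CPM (4.12 to 8.14) in CD45- Tom+, 979 UMIs or 27.7 CPM (26.0 to 29.5) in CD45- Tom-, 70 UMIs or 26.2 CPM (20.4 to 33.0) in CD45+ Tom+ and 468 UMIs or 11.0 CPM (10.1 to 12.1) in CD45+ Tom-. The log2 ratio of Tom+ over Tom- was therefore -2.23 (95% counting interval -2.76 to -1.75) for the libraries labelled CD45- and 1.24 (0.86 to 1.61) for those labelled CD45+. Without the 43 Inhba-rich cells the 4 levels were 5.88, 6.57, 7.48 and 6.66 CPM, and the ratios were -0.16 (-0.71 to 0.35) and 0.17 (-0.58 to 0.84). These cells were taken out by their Inhba count, so the second set of values describes where the difference lay and is not a test of it. Leaving out the 5 highest cells of each library gave -1.59 and -0.75. In the CD45+ pair this took 5 of 16 cells with an Inhba UMI from Tom+ but 5 of 208 from Tom-. The 2 sides were thus not trimmed alike.

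Inhbb also went in opposite directions, and 1 cell decided the second. Its levels were 29.2 CPM (25.1 to 33.9) in CD45- Tom+, 47.2 CPM (45.0 to 49.5) in CD45- Tom-, 73.2 CPM (63.3 to 84.2) in CD45+ Tom+ and 43.9 CPM (41.9 to 45.9) in CD45+ Tom-, and the log2 ratios were -0.69 (-0.92 to -0.47) and 0.74 (0.52 to 0.95). A cell of cluster 18 with 80 Inhbb UMIs among 39685 held 40.8% of the Inhbb UMIs of CD45+ Tom+, and without it the library had 44.0 CPM, near its Tom- counterpart. In CD45- Tom+ no cell had more than 6.15% of the Inhbb UMIs.

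Fst and Acvr2a differed little between the Tom+ and Tom- libraries. Fst was 226, 245, 234 and 245 CPM in the 4 libraries, with log2 ratios of -0.12 (-0.20 to -0.04) and -0.07 (-0.19 to 0.05). Acvr2a was 70.1, 73.5, 72.5 and 75.0 CPM, with -0.07 (-0.22 to 0.08) and -0.05 (-0.27 to 0.16). Fstl3 was lower in the Tom+ library of each pair, at -0.44 (-0.82 to -0.08) and -0.41 (-0.99 to 0.12), as was Acvr1b, at -0.23 (-0.54 to 0.06) and -0.57 (-1.08 to -0.10), and 2 of these 4 intervals reach 0. Acvr2b was 2.45 against 3.36 CPM in the CD45- pair (-0.46, -1.34 to 0.32) and 4.48 against 2.26 CPM in the CD45+ pair (0.99, -0.02 to 1.86), on only 15 and 12 UMIs in the Tom+ libraries.

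Among genes averaging 5 CPM or more over a pair, a log2 ratio of 1 or more toward Tom+ was reached by 1.56% of 9928 in the CD45- pair and 1.16% of 9839 in the CD45+ pair, and toward Tom- by 0.141% and 0.498%. Of the 6 members tested (Acvr2b was below the minimum), 0 were past this toward Tom+ and 1, Inhba, toward Tom- in the CD45- pair, and 1, Inhba, toward Tom+ and 0 toward Tom- in the CD45+ pair. Since this contrast of Inhba chose the genes, nothing is read from these counts. The median log2 ratio of the 6 was -0.34 and -0.06 against -0.03 and -0.03 over all genes tested. None of the 8 other receptors tested, 11 SMAD2/3 signalling genes or 8 SMAD2/3 response genes passed a log2 ratio of 1 in either pair. The myofibroblast genes Acta2 (3.15) and Tagln (2.27) did so toward Tom+ in the CD45+ pair.

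**Figure D4:**
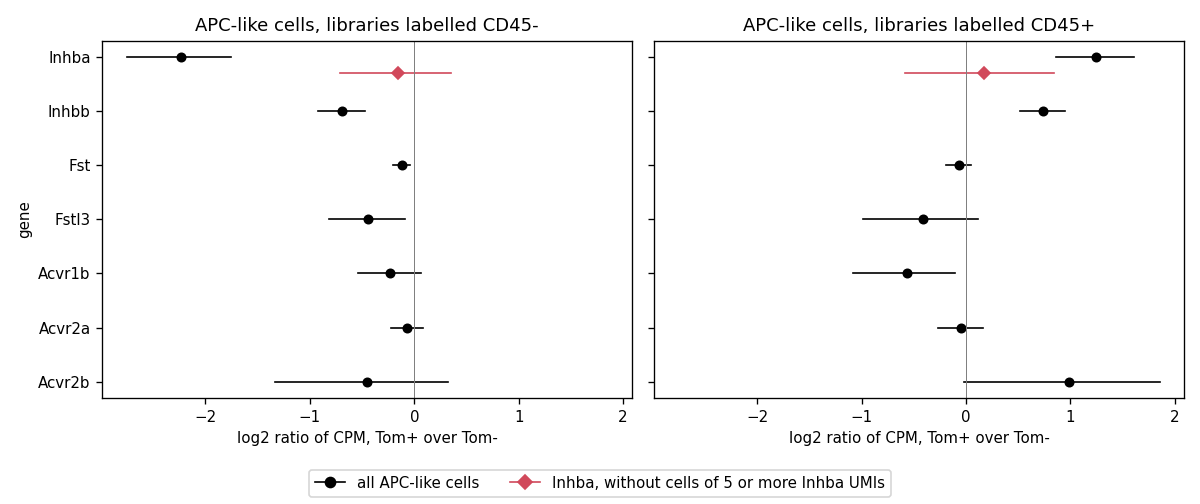
Log2 ratio of CPM, Tom+ over Tom-, in APC-like cells for the pair of libraries labelled CD45- (left) and CD45+ (right), with 95% counting intervals. Inhba lies at -2.23 and 1.24 with all cells (black) and at -0.16 and 0.17 without the cells of at least 5 Inhba UMIs (red), and Fst and Acvr2a lie near 0 in both pairs.

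Other classes gave other Inhba values. In cluster 7 it was 9.41 CPM in CD45- Tom+ and 5.74 CPM in CD45- Tom-, a log2 ratio of 0.71 (0.11 to 1.32) opposite to that of the APC-like cells of the same libraries. Here too few cells weighed heavily. In CD45- Tom+ 2 cells with at least 5 Inhba UMIs held 18 of the 58 UMIs, and in CD45- Tom- 1 such cell held 5 of 42. Mesothelial-like cells had 7.59 CPM (4.15 to 12.7) in CD45- Tom+, 14.6 CPM (12.4 to 17.0) in CD45- Tom- and 8.21 CPM (6.65 to 10.0) in CD45+ Tom-. Cells with at least 5 Inhba UMIs numbered 0, 5 and 2 there. They held 0 of 14, 70 of 165 and 12 of 96 UMIs. In macrophage-like cells the counts were 24, 8, 3 and 24 UMIs over the 4 libraries, all at or under 1.60 CPM.

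The genes that went with Inhba in the Inhba-rich cells were then read in the 2 Tom- libraries, the only ones with enough of them. In CD45- Tom-, 25 such cells, with 908 CPM of Inhba and a median depth of 35600 UMIs, were compared with 1361 cells without an Inhba UMI, with a median of 21139. In CD45+ Tom-, 15 such cells (380 CPM, median 31780) were compared with 1512 (median 22888.5), fewer than the planned minimum of 20 cells. In the first library 3.93% of 9722 genes were at least 2-fold higher and 5.81% at least 2-fold lower in the Inhba-rich cells, and in the second 5.4% and 6.34% of 9759, so with so few cells many genes pass this size.

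Among the members, Acvr2a was lower in these cells in both libraries, at 27.8 against 76.5 CPM (log2 -1.46, -2.12 to -0.87) and 14.1 against 78.4 CPM (-2.48, -3.79 to -1.43). Acvr1b was at -0.81 (-1.87 to 0.08) and -1.09 (-2.72 to 0.13), with intervals that include 0. Fst was 158 against 257 CPM in the first library (-0.70) and 175 against 254 CPM in the second (-0.54), with 48.1% and 71.3% of the Fst UMIs of the Inhba-rich cells in 1 cell. Inhbb was the same within error, at 0.05 (-0.45 to 0.50) and 0.40 (-0.19 to 0.93), and Fstl3 was at 0.81 (0.13 to 1.43) and 0.36 (-0.77 to 1.30). Of the 5 members tested beside Inhba, 0 were 2-fold higher and 1 (Acvr2a) 2-fold lower in the first library, and 0 and 2 (Acvr2a and Acvr1b) in the second. Weighting the comparison cells to the clusters of the Inhba-rich cells changed Acvr2a to -0.74 and Fst to 0.47 in the first library.

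Looking cell by cell, the richest cell had 63 Fst UMIs and 1 Inhbb UMI, the second 1 and 0, the third 13 and 2, and the fourth 2 and 1. The 4 cells together had 3 Acvr2a and 1 Acvr1b UMIs. All 4 had Timp1, an inhibitor of matrix proteases, with 106, 231, 54 and 162 UMIs, and Tgfb2, with 14, 6, 4 and 147, but only 3 had Tagln, with 46, 36 and 100, and the richest had neither Tagln nor Acta2. None had a Cdkn2a (p16) UMI, and their tdTomato counts were 0, 2, 1 and 0.

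In the Inhba-rich cells of CD45- Tom- the 10 genes with the largest log2 ratio at a mean of 50 CPM or more were Cemip (5.35), Tnc (4.11), Ereg (3.71), Tagln (3.58), Piezo2 (3.15), Nov (3.05), Acta2 (2.96), Star (2.95), Col12a1 (2.93) and Ncam1 (2.92). Tnc, which encodes the wound matrix protein tenascin C, had 525 against 30.5 CPM and was in 10 of 25 cells, Tagln, of the contractile apparatus, 709 against 59.4 CPM in 13 cells, and Cemip, a hyaluronan-degrading protein, was in only 2. Without the barcodes that occur in another library, the recomputed ratios of Tnc (-0.49), Tagln (-0.28) and Col12a1 (-0.30) were negative. None of the 7 cells then left had a Tnc UMI, and only 1 had Tagln, with 1 UMI. Counts under 3 enter as 3, so the Tnc and Tagln values are set by that floor and are not measured reversals. The 5 lowest were Inmt (-3.56), Txnip (-2.52), Peg3 (-2.47), Igfbp5 (-2.40) and Cd36 (-2.37). Inmt is the gene that led cluster 0. Tnc was among the 10 leading genes of cluster 18 and Ereg among those of cluster 9. These clusters held 20 of the 25 Inhba-rich cells. With the comparison cells weighted to the clusters of the Inhba-rich cells, 16 of 43 recomputed ratios moved by less than counting error. The part of the clusters in these ratios was not tested.

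In CD45+ Tom- the list was Il1rl1 (7.63, in 4 of 15 cells), Serpinb2 (7.51, in 3), Tnc (3.75, in 8), Spp1, Cav1 (2.78), Ncam1 (2.74), Star (2.74), Rdh10, Wnt4 (2.62) and Nrep (2.61), and the lowest were Mmp3 (-4.44), Hpgd, Hp, Adm and Inmt (-2.65). For Il1rl1, Serpinb2 and Spp1 the highest of the Inhba-rich cells held 56.45%, 51.38% and 91.75% of their UMIs. Tnc, Ncam1 and Star were thus among the 10 highest in both libraries, and Inmt among the 5 lowest. The highest cell held 56.0%, 54.9% and 51.1% of the UMIs of Tnc, Ncam1 and Star in CD45+ Tom-. In CD45- Tom- it held 36.3%, 35.5% and 43.9%. These genes had 14.15 to 32.6 CPM in the comparison cells, so they met the minimum mean of 50 CPM only through the Inhba-rich cells. The libraries parted on the contractile genes, since Tagln was 62.3 against 61.3 CPM (0.02) and Acta2 26.1 against 12.0 CPM (1.12, with 92.3% of its UMIs in 1 cell) in CD45+ Tom-.

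By group, 3 of the 8 SMAD2/3 response genes were at least 2-fold higher and 0 lower in the Inhba-rich cells of CD45- Tom-, with a median log2 ratio of 0.64 against -0.05 over all genes tested. Among them were Ltbp2 (2.42), which encodes a latent TGF-beta binding protein, and Pmepa1 (1.09), a feedback inhibitor. In CD45+ Tom- 3 were higher and 1 lower with a median of 0.10, Ltbp2 (1.52) and Pmepa1 (1.01) being shared and Tgfbi (1.39) and Ctgf (-1.36) not, and the inhibitory Smad7 at -0.76 against 0.59 in the first library. Of the myofibroblast genes 3 of 4 tested were higher in the first library (Tagln, Acta2 and Cthrc1 at 2.57) and 2 of 4 in the second (Cthrc1, 98.5 against 24.6 CPM, and Acta2).

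Of the 18 secretory and cell cycle arrest genes tested in CD45- Tom-, 8 were 2-fold higher, among them Timp1 (2.03, 1191 against 291 CPM), Cxcl2 (2.01), Lif (1.93), Ccl2 (1.72) and Cdkn2a (1.74, on 13 UMIs in 6 cells), and 3 were lower, Igfbp5, Mmp3 and Gdf15. In CD45+ Tom- 5 of 17 were higher and 2 lower. Timp1 (2.48) and Cxcl2 (1.90) were higher again, while Cdkn2a was at 0.01 on 3 UMIs, Lif at 0.34, Il6 at -1.42 against 0.87, and Igfbp5 at 2.47 against -2.40. Cdkn1a, the p21 gene, was lower without reaching 2-fold, at -0.68 and -0.75. Of the progenitor subset genes 4 of 8 were at least 2-fold lower and 0 higher in CD45- Tom- (F3 -1.42, Fgf10 -1.31, Dpp4 -1.22, and Enpp6 without a UMI against 32.1 CPM) and 2 of 8 were lower and 0 higher in CD45+ Tom-. There Pi16 was 241 against 167 CPM (0.53, 0.26 to 0.79) and Dpp4 was at -0.15. In CD45- Tom- Fgf10 came to 0.60 without shared barcodes, where only 7 Inhba-rich cells were left. Of the immediate early and dissociation stress genes Ier3 was higher in both (1.43 and 1.86), and Fos (-0.75 and -0.62) and Jun (-1.27 and -0.93) were lower.

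**Figure D5:**
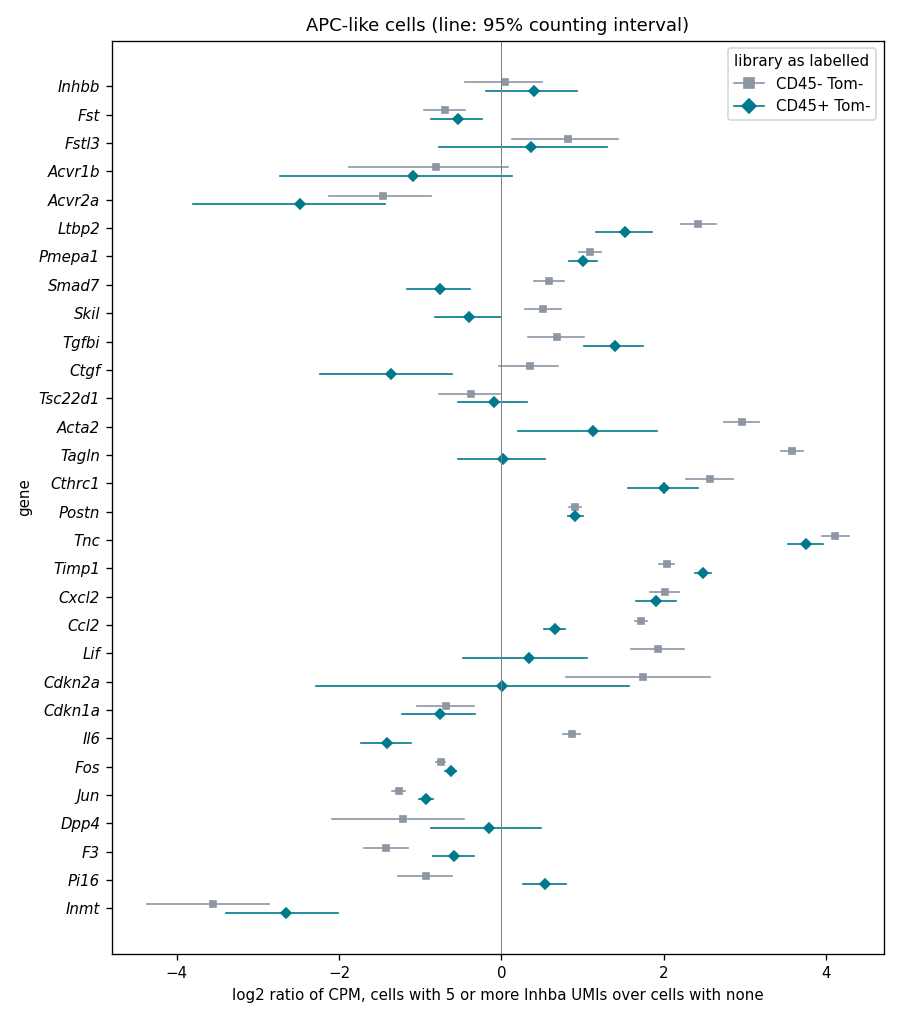
Log2 ratio of CPM in APC-like cells with at least 5 Inhba UMIs over those with none (horizontal, with 95% counting intervals) in the CD45- Tom- (grey, 25 cells) and CD45+ Tom- (teal, 15 cells) libraries, for members, SMAD2/3 response, myofibroblast, secretory, early response and progenitor genes. Tnc, Timp1, Ltbp2 and Cthrc1 lie well above 0 and Acvr2a and Inmt well below 0 in both. The intervals of many genes do not overlap between the libraries, among them Tagln, Acta2, Il6, Lif, Ccl2, Smad7, Pi16 and Timp1.

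Several measures moved with the Inhba-rich cells, and their part in these differences was not tested. Besides the depth, 18 of the 25 cells in CD45- Tom- and 12 of the 15 in CD45+ Tom- had a barcode that occurs in another library, against 48.4% and 38.4% of the comparison cells. Among comparison cells with at least 25000 UMIs the share was 97.9% and 83.8%. The other entries of the 18 barcodes had a median of 2.27% of the UMIs of the cell here and 10 Inhba UMIs against 666 here. Without all shared barcodes 7 Inhba-rich cells and 702 comparison cells were left in CD45- Tom-. None of the 7 was of cluster 18, which had 9 of the 25, and their median depth was 17253 UMIs. Tnc came to -0.49 and Tagln to -0.28, both set by the floor of 3 counts. Timp1 (1.27), Ltbp2 (1.41), Acvr2a (-1.81, also at that floor) and Inmt (-4.09) kept their direction. Without the 4 richest cells Tnc was 2.83, Timp1 1.23 and Acvr2a -1.28.

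Markers of other cells were summed in the same way. Ptprc was 13.3 against 10.8 CPM and 10.1 against 8.75 CPM, and the 8 macrophage markers together 61.6 against 77.0 and 46.2 against 69.9 CPM. The 7 blood endothelial markers had 84.5 against 17.7 and 76.4 against 16.6 CPM, the 7 mast cell markers 97.8 against 23.0 and 8.04 against 15.1 CPM, the 7 B cell markers 16.9 against 8.30 and 80.4 against 11.0 CPM, and the 7 markers of innate lymphoid cells, which include Il1rl1, 230 against 158 and 533 against 155 CPM. Of these lists, the genes above the 5 CPM minimum that were 2-fold higher were 2 of 2 and 3 of 3 for blood endothelial, 4 of 5 and 0 of 0 for mast cell, 0 of 0 and 6 of 6 for B cell and 1 of 2 and 2 of 3 for innate lymphoid markers. Over all genes tested the share was 3.93% and 5.4%. The minimum is a mean over both sets, so genes scarce in the comparison cells pass it mainly by being high in the Inhba-rich cells. Nothing is therefore read from these counts. The 9 APC markers had 51324 against 41205 and 51380 against 41351 CPM.

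Cells with any Inhba UMI, compared at a depth of at least 10000 UMIs, pointed the same way for Acvr2a. It had 28.1 CPM in 24 such cells against 76.0 CPM in 212 without in CD45- Tom+, 55.1 against 76.5 CPM in CD45- Tom-, 46.9 against 80.6 CPM in CD45+ Tom+ and 54.1 against 78.4 CPM in CD45+ Tom-, so its CPM was lower in the cells with Inhba in all 4 libraries. The share of cells with an Acvr2a UMI was 41.7% against 71.7%, 59.4% against 68.85%, 75.0% against 74.7% and 62.9% against 71.4%, so it was not lower in CD45+ Tom+. Fst was lower in CPM as well, at 134 against 238, 171 against 254, 114 against 269 and 189 against 253 CPM. Inhbb had no such common direction, at 46.8 against 27.4, 57.1 against 45.55, 71.3 against 71.5 and 41.6 against 44.4 CPM. Inhbb had a UMI in 37.5% of the cells with Inhba against 22.2% of those without in CD45- Tom+, 38.9% against 31.4% in CD45- Tom-, 50.0% against 37.3% in CD45+ Tom+ and 36.0% against 30.1% in CD45+ Tom-, with overlapping intervals in each library and a higher median depth in the cells with Inhba. Clusters 9 and 18, with the largest shares of cells with an Inhba UMI, were also low in Acvr2a and Fst, while cluster 9 was rich in Inhbb. The part of the clusters in these values was not tested.

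Finally, genes with a like profile over the 21 classes and clusters were named for the members that reached 20 CPM in at least 1 of them. For Inhbb these were Tmem47 (Pearson r = 0.96), Vstm4 (0.95) and Atp8b1 (0.95), for Fst Vegfd (0.99), Mfap5 (0.97) and the APC marker Clec3b (0.97), for Acvr1b Ecm1 (0.85), Pla2g4a (0.84) and Akt2 (0.82), and for Acvr2a Spry1 (0.89), Akap12 (0.87) and Kctd17 (0.84). The classes come from the same 4 libraries and differ in depth, so these are descriptions. Inhba, Fstl3 and Acvr2b stayed below 20 CPM in every class and were not compared.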

How the data were processed

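Stromal vascular cells were sorted by the authors into 4 groups, and 1 10x 3' v3.1 library was made from each. The authors ran Cell Ranger 3.0.2 on mm10, per the labels, and deposited UMI counts per gene and barcode without normalization. Computed here were the following. Barcodes were kept, with the thresholds of the study, at gene numbers between 1000 and 7000 and a mitochondrial share below 8%. As a step added here, 1104 cells marked by Scrublet were removed. Clustering (scanpy 1.11.5, leidenalg 0.10.2) used 2000 variable genes without the genes of the lists compared, 30 principal components, 15 neighbours and resolution 1, and gave 31 clusters. Clusters were named from markers, and the rule that left 7 unnamed was set after seeing the data.

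CPM are summed UMIs scaled to 1000000 with exact Poisson intervals, shares have exact Clopper-Pearson intervals, and log2 ratios have conditional exact intervals, all at 95% and for counting error only. A level with 0 counts is given with its limit of 3 counts, and recomputed ratios of the Inhba-rich cells set counts under 3 to 3. Barcodes held 64083756 to 139397501 UMIs per library. Since cells of 1 library are not replicates, no test was run. Calls in background counts were log2 ratios of at least 1 at a mean of 5 CPM. Cells with at least 5 Inhba UMIs were compared with cells with none, and the genes named were the members, listed pathway genes of at least 20 CPM and the 10 highest and 5 lowest of at least 50 CPM. The computation was checked on simulated counts. Positions are from GENCODE vM21, found for 30934 of 31054 features. The members, lists and rules were chosen with earlier results of these data known. The values of 1 gene of the lists are not reported here.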

Additional observations from a re-analysis of the deposited data

Results flagged for a closer look

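The log2 ratio of Inhba between Tom+ and Tom- APC-like cells was -2.23 in the libraries labelled CD45- and 1.24 in those labelled CD45+, opposite directions under the same contrast. Inhbb showed the same pattern, with -0.69 and 0.74. The difference between the pairs was not tested, since each group is 1 library. In the CD45+ pair Inhba came to -0.75 and Inhbb to -0.45 without the 5 highest cells of each library. This takes 5 of 108 cells from Tom+ but 5 of 1720 from Tom-, so the 2 sides were not trimmed alike.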

How the results depend on the processing

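The Inhba log2 ratio of the CD45- pair stayed negative under all 9 alternatives. It was -1.72 under a loose filter (500 genes or more, a mitochondrial share below 20%), -1.51 with each cell weighing the same, -1.21 without barcodes present in another library and -1.59 without the 5 highest cells. The ratio of the CD45+ pair was 0.70 with each cell weighing the same and came to -0.75 without the 5 highest cells, where 12 UMIs were left in Tom+. The other 7 alternatives gave 1.18 to 1.58. Leaving out 5 cells takes a larger part of the 108 cells of Tom+ than of the 1720 of Tom-. The Inhbb ratio of the CD45+ pair was -0.33 under the loose barcode filter, -0.0026 with marked doublets kept, -0.04 at resolution 2 and 0.03 with 4000 variable genes. The share of Inhba UMIs in the richest 2% of CD45- Tom- cells was 74.3% under the loose filter and 63.4% without shared barcodes. After thinning to 2000 UMIs it was 98.2%. Only 1.90% of APC-like cells of all libraries then had an Inhba UMI, so this value followed from sparsity and does not check the concentration. In the Inhba-rich cells of CD45- Tom-, the sign of Tnc (-0.49), Tagln (-0.28), Col12a1 (-0.30), Cxcl2 (-1.47) and Fgf10 (0.60) changed without shared barcodes. The Tnc and Tagln values were set by the floor of 3 counts and are not measured reversals. This setting left only 7 Inhba-rich cells, none of them of cluster 18. Their median depth was 17253 UMIs, against 35600 for all 25, so cluster make-up and depth changed along with barcode sharing. The cluster-matched comparison turned Fgf10 to 0.0181 and also changed the sign of Fst, as given above. The causes were not tested. Of 126 ratios between libraries recomputed for the members, 100 moved by less than counting error, as did 181 of 252 levels and 208 of 344 ratios of the Inhba-rich cells. Leaving out cells with more UMIs of their barcode elsewhere, weighting to clusters, leaving out the 4 richest, all Inhba-rich or the highest Inhbb cell and the CD45+ Tom- comparison were chosen after seeing the data. No paired analysis was possible because each group is 1 library. Depth limits Acvr2b most, with 12 to 119 UMIs per library in APC-like cells.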
